A study of Homo sapiens with 5 samples.

Results

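SNHG5, the RNA that served as bait in this pull-down, is a noncoding gene (ENSG00000203875) at chr6:86360209-86388650 of hg19 on the minus strand, a stretch of 28442 bp with 89 annotated transcripts. Every peak of both deposited lists that shared at least 1 bp with this stretch was taken, which gave 6 peaks, 0.663% of the Odd list, and 9 of the 8626 peaks (0.104%) of the Even list. HCT-116, a colorectal carcinoma cell line, was cross-linked in 1% glutaraldehyde in all 5 libraries, and no other treatment or genotype was compared. SNHG5 was retrieved with biotinylated DNA oligonucleotides, split into an Odd pool (2 libraries) and an Even pool (1 library), and the RNA that came with it was sequenced. The 2 control libraries are labelled INPUT, whereas the methods describe the pooled reference as retrieved with oligonucleotides against luciferase. The Odd list was called on both Odd libraries together and the Even list on its single library, against the same pooled control, so each value below is 1 measurement without a replicate error, and no difference between values was tested.

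SNHG5 belongs to the small nucleolar RNA host genes, whose introns hold snoRNAs and whose spliced RNA does not encode a known protein. The hosted U50A and U50B are box C/D snoRNAs. Such snoRNAs carry a C box and a D box and guide methylation of ribosomal RNA by base pairing. They are cut out of the introns, while the exons are joined into the host RNA, and it is this spliced RNA that the oligonucleotides were designed to bind.

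Of 20 listed oligonucleotides, 16 had an exact target in annotated SNHG5 transcripts, 8 of the Odd pool, 7 of the Even pool and 1 not marked as either. The remaining 4 had no exact match as read from the supplement and were not placed. All 16 targets lay between 86386841 and 86388451, a stretch of 1611 bp at the 5′ end of the gene, and 4 of them existed only across a splice junction. The targets below, read from the reference genome on the minus strand, are shown to mark the first and the last target, 1 in the middle and 1 across a junction, where capitals mark the downstream exon.
Target 1, Odd, chr6:86388432-86388451: cttttacgtcggccttcgcg
Target 6, Even, chr6:86387706-86387725: ctgggagaatatttaatgga
Target 12, Even, from 86387522 to 86387201 across the intron: tcattttgaaTGAGGGTCGC
Target 19, Odd, chr6:86386841-86386860: aaaccatccagaaaaaagct

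Neither snoRNA was annotated inside the gene in the annotation used here, so both were placed by sequence. U50A, 75 nt, was located through the exact match of its primer pair, in intron 5 of the 6-exon transcript SNHG5-202. U50B was placed in intron 4 by alignment of an annotated SNORD50 copy on another chromosome, with 92.9% identity over 70 nt. The paper names intron 4 for U50A and intron 5 for U50B, the reverse of this placement. Both are shown because they lie between the target-bearing exons, with capitals marking the C box (TGATGA) and the D box (CTGA).
U50B, chr6:86387307-86387376: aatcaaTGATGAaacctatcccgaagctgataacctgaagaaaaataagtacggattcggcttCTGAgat
U50A, chr6:86387012-86387086: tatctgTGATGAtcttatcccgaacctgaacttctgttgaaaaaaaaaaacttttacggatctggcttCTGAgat

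The 15 peaks fell into 7 separate regions, called A to G here from the 5′ to the 3′ end of the gene. Regions A to F held a peak of both pools and region G an Even peak alone. The peaks covered 49.7% of the gene in the Odd list and 57.5% in the Even list, with 74.4% and 82.4% of the annotated exon sequence and 30.0% and 37.7% of the sequence that is intronic in every transcript. Each of the 6 Odd peaks was overlapped by an Even peak, against 39.8% of all Odd peaks, and for Even this held of 8 among the 9 peaks, against 4.32% of the whole list. Both lists share their control libraries, and the bait was chosen by the study, so these shares describe the position of the peaks and are no independent evidence of each other. The median length of the SNHG5 peaks was 2274 bp in the Odd list and 1439 bp in the Even list, whereas the medians of the whole lists were 533 bp and 297 bp.

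**Figure D1:**
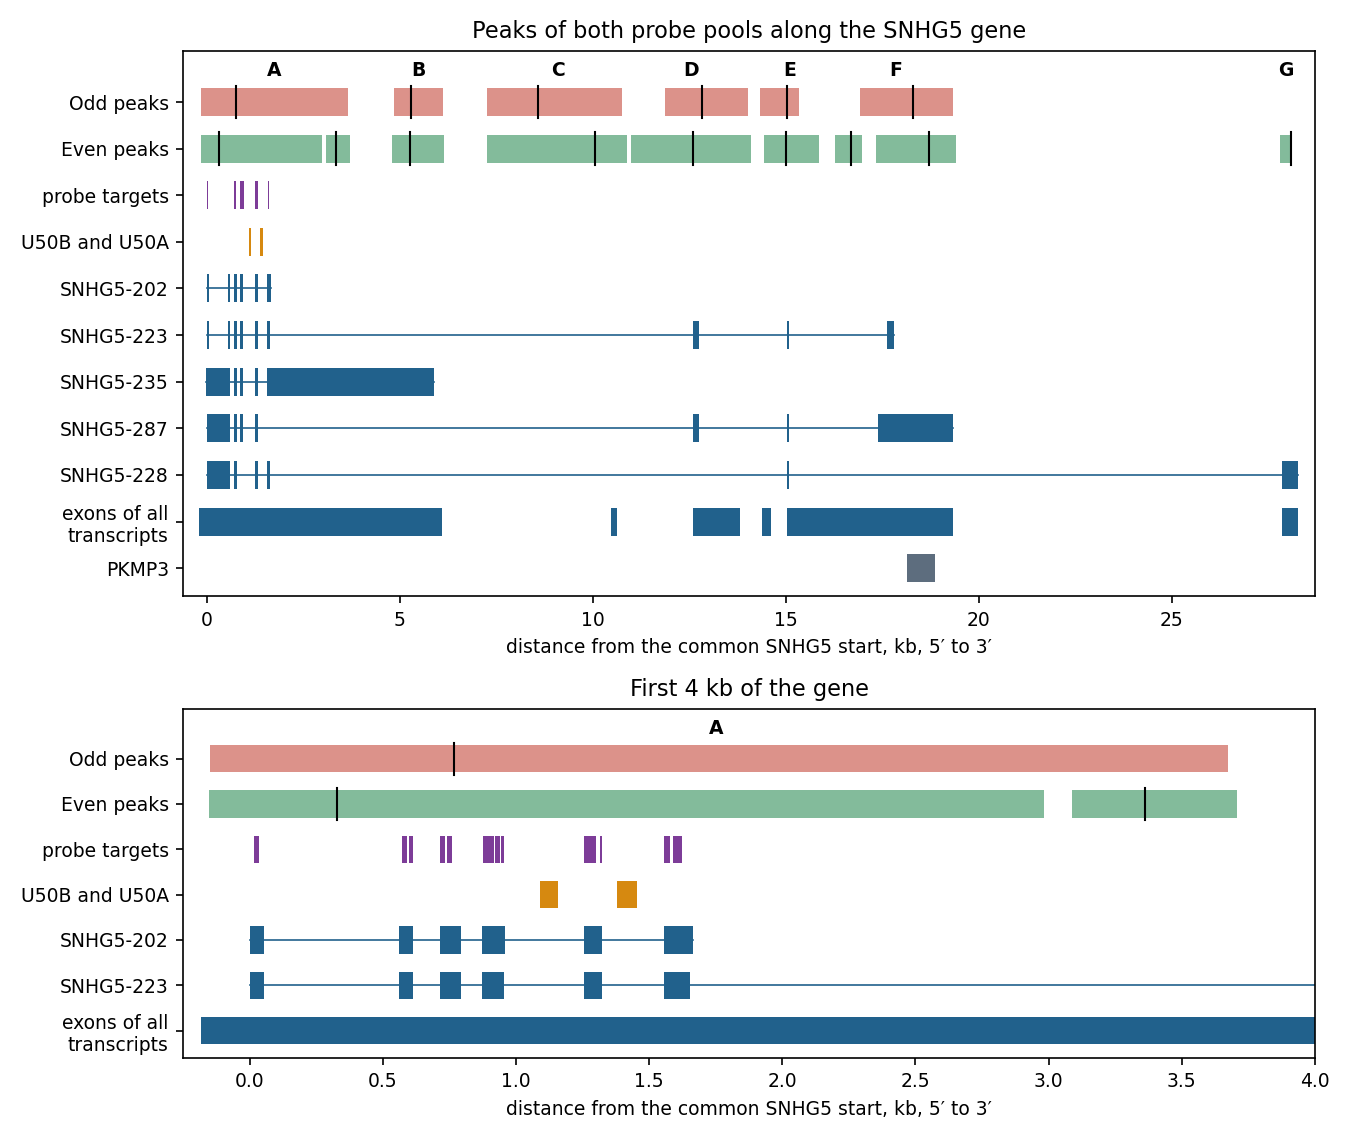
Map of the SNHG5 gene with distance in kb from the most common transcript start on the x axis, 5′ to 3′, and the first 4 kb enlarged in the lower panel. Boxes are peaks (black lines, summits), probe targets, snoRNAs and exons of 5 named transcripts, thin lines are introns, and letters name the 7 regions. All targets lie in region A, while peaks of both pools run on to 19.4 kb and an Even peak lies at 28.1 kb.

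Region A, chr6:86384758-86388621, held all 16 targets and both snoRNAs. Its Odd peak ran from 86384792 to 86388617 and had its summit at 86387699, 767 nt after the common start, in exon 3 of SNHG5-202. The pileup, the number of extended tags over the summit, was 1553 there against a control background of 941.2, a fold enrichment of 1.65. The main Even peak ran from 86385484 to 86388621 with its summit 327 nt after the start, in the first intron of SNHG5-202, a position that is exonic in 51 transcripts. Its pileup was 2200 against a background of 309.9, a fold enrichment of 7.10. A second, short Even peak at the 3′ side of region A had a pileup of 162 and a fold enrichment of 2.15. The main summits of the pools lay 440 bp apart, and the background differed between these positions, with 2940 control tags per kb at the Odd summit and 1070 at the Even summit. The targeted transcript was thus the most deeply covered part of the gene in both lists and among the lowest in recorded fold enrichment.

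Duplicate tags at a position were limited by the authors to 3 in the Odd and control libraries and to 2 in the Even library. With fragments of 260 bp for Odd and 290 bp for Even, this limits the pileup to 1560 in the Odd list and 2352 in the Even list. The Odd pileup in region A stood at 99.6% of its limit and the Even pileup at 93.5%. Over the background at the Odd summit, the highest fold enrichment that the limit allows is 1.66, and over that at the Even summit it is 7.59, so larger values could not have been recorded there. In the Odd list 1 peak had a lower fold enrichment than that of region A, and 1 peak, in AKAP12, had a higher pileup, with 1558. By these measures the same peak thus stood at opposite ends of the list.

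Both snoRNAs lay inside the Odd and the main Even peak of region A, but no summit lay within either. The nearest Odd summit was 323 bp from U50B and 613 bp from U50A, and the nearest Even summit was 763 bp and 1053 bp away. Peaks carry no strand, and coverage from the spliced host RNA, its unspliced precursor and the snoRNAs cannot be told apart in one merged peak.

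Region B, chr6:86382309-86383669, lay 4.8 to 6.2 kb after the start. The Odd peak had a pileup of 247 against a background of 79.68, a fold enrichment of 3.10. For Even the pileup was 261 against 72.1, a fold enrichment of 3.62. The background corresponded to 249 control tags per kb in both lists, and their summits were 27 bp apart. Region B is exonic in 3 transcripts, all of which end in it. SNHG5-235, 5169 nt long, carries all 16 targets and reads from the target-bearing exons through region A into region B without a further splice.

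Region C, chr6:86377578-86381202, was the only one where the summits of both pools were intronic in every transcript. The Odd peak, 3483 bp long, had a pileup of 75 over a background of 1.056, a fold enrichment of 71.04. The Even peak, 3625 bp long, had a pileup of 64 over 0.986, a fold enrichment of 64.89. The limits of the peaks differed by 136 bp at the 3′ side and by 6 bp at the 5′ side, whereas their summits were 1487 bp apart. Annotated exon made up 4.7% of the Odd peak, from a single exon of SNHG5-220, which carries 7 of the targets. The sequence around the Odd summit is shown because no annotated SNHG5 exon reaches it.
Region C, chr6:86379837-86379937: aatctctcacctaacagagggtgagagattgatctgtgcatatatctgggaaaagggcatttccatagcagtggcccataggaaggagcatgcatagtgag

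Region D, chr6:86374362-86377471, had the largest fold enrichment of the gene with both pools, 10995 to 14104 nt downstream of the start. The Odd pileup was 531 over a background of 6.153, a fold enrichment of 86.30, and the Even pileup was 543 over 2.318, a fold enrichment of 234.26. By p the peak ranked 4 in the Odd list and 14 of 8626 in the Even list, just ahead of the Even peak in region A, which ranked 15. The summits were 212 bp apart, with a background that corresponded to 19.2 control tags per kb at the Odd summit and 7.99 at the Even summit. Backgrounds of 6.153 and 2.318 stand for few control tags, so the ratios over them are sensitive to single tags. The Odd pileup reached 34.0% of its limit and the Even pileup 23.1%, so duplicate removal bounded neither value as closely as in region A. The Odd summit at 86375645 was exonic in 13 transcripts and the Even summit at 86375857 in 30. Within SNHG5, the largest recorded fold enrichment of both lists thus lay outside the targeted sequence, at exons that only the extended transcripts contain. In region A the limit allows no more than 1.66 for Odd and 7.59 for Even. These values therefore cannot show whether the targeted sequence was enriched less than region D.

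The exon at the Even summit of region D begins at 86375865. It is spliced to the end of exon 5 of SNHG5-202 in 13 transcripts and to a site inside its exon 6 in 11 transcripts. In SNHG5-223, which has 9 exons in 818 nt and carries all 16 targets, the targeted exons are followed by 1 exon each in regions D, E and F. Its junctions are shown because they are the annotated links between targeted sequence and the downstream regions, with capitals marking the downstream exon and 15 nt given on each side.
Exon 6 to exon 7, from 86386811 to 86375865, region A to region D: atgaaaataaaacatTTAGTTGAATCCATG
Exon 7 to exon 8, from 86375722 to 86373444, region D to region E: agcctggccaacatgGGTACTGCTTTCTCT
Exon 8 to exon 9, from 86373392 to 86370852, region E to region F: aggtatgaagttaagGTAACATGAAGGAGG

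Of the 48-nt stretches within 250 bp of the summit of region D, 12.1% occurred exactly elsewhere in the genome, at both the Odd and the Even summit. The share was 5.3% at both summits of region E and 22.2% at that of a short Even peak in region F. At the remaining SNHG5 summits it was at most 2.2%. Stretches were taken from the unspliced gene, so those across exon junctions were not counted. Of the 404 stretches of 48 nt in spliced SNHG5-202, which lies in region A, 62 were identical in the copy on chromosome 17 described below. Copies with mismatches were not counted, and the part of tags from other copies was not tested.

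Region E, chr6:86372601-86374129, had an Odd peak with a pileup of 56 over a background of 1.23 and a fold enrichment of 45.51. The Even peak had a pileup of 46 over 0.986 and a fold enrichment of 46.64. The summits were 27 bp apart and fell on either side of an exon boundary, so that the Odd summit was exonic in 19 transcripts and the Even summit in none. The Odd summit lies in exon 8 of SNHG5-223.

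Region F, chr6:86369056-86372181, is where 18 of the 36 extended transcripts end. All 18 transcripts with an exon here also end here, 3 of them with all 16 targets. The Odd peak had a pileup of 35 over a background of 0.472, a fold enrichment of 74.10. The longer Even peak had a pileup of 36 over 0.422, a fold enrichment of 85.26. A shorter Even peak at the 5′ side, with a pileup of 10, had a fold enrichment of 23.68 and came from 5 tags before scaling. The 3′ limit of the Odd peak, 86369146, lay 1 bp from the annotated end of SNHG5-287 at 86369145, a transcript with 12 targets. This was the closest match in the Odd list, as the Odd limits in regions A to E lay 37 to 2184 bp from the nearest end. Other transcripts ended nearby, at 86369130, 86369192 and 86369215. Peak limits also depend on tags extended to 260 bp, so the distance of 1 bp does not single out SNHG5-287. The Even limit, 86369056, lay 74 bp beyond the end of SNHG5-284, a single-exon transcript without any target.

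The Odd summit and the summit of the longer Even peak in region F both lay in PKMP3, a transcribed processed pseudogene at chr6:86369610-86370324 on the minus strand, within the long last exon of SNHG5-287. PKMP3 derives from the mRNA of PKM, which encodes the glycolytic enzyme pyruvate kinase. None of its 48-nt stretches occurred exactly elsewhere, and PKM had 0 peaks over an exon in either list. Copies with mismatches were not counted, and the lists do not give the coverage of PKM. The part of tags from PKM RNA in these peaks was not tested. The sequence at the Odd summit is shown because pseudogene and extended SNHG5 exon coincide in it.
Region F, chr6:86370130-86370230: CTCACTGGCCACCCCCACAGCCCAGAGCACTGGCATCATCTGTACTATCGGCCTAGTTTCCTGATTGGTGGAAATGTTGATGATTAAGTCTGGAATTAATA

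Region G, chr6:86360376-86360665, held a single Even peak of 290 bp with a pileup of 8, which stands for 4 tags before scaling, and a fold enrichment of 18.95. It overlapped the last exon of SNHG5-228, the transcript that reaches the 3′ limit of the gene, with 11 targets. No Odd peak lay there. The Odd list keeps only peaks that passed a reproducibility filter, so the absence of such a weak peak from it cannot be compared with its presence in the Even list.

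Regions A to F stood in another order by pull-down level than by fold enrichment. Per kb and 1000000 kept tags, the Odd pull-down at the summit was 1220 tags in region A, 194 in B, 58.8 in C, 416 in D, 43.9 in E and 27.4 in F. The Even pull-down was 1900, 226, 55.4, 470, 39.8 and 31.1 tags in the same regions, taking the longer peak where there was more than 1. With both pools the level was thus highest in region A, next in D, then in B, C, E and F. In region A the pileup stood at 99.6% of its limit for Odd and 93.5% for Even. The levels there are therefore bounded by duplicate removal and are no measure of retrieval relative to region D or between the pools. The control background on this scale was 738, 62.5, 0.828, 4.82, 0.965 and 0.370 tags at the Odd summits and 268, 62.4, 0.853, 2.01, 0.853 and 0.365 at the Even summits. It was lowest in region F and highest in region A. In region F the background was at the lowest value of either list, 0.472 as a pileup for Odd and 0.422 for Even, shared by 113 Odd and 3070 Even peaks to within 1%. So widely shared a value is a floor of the lists rather than a control level measured in region F. The Even peak of region G stood at the same floor. Ratios over so low a background are sensitive to it. With 1 added to pileup and background, the Odd fold enrichment became 36.97 in region C, 74.37 in region D, 25.55 in region E and 24.45 in region F, and the Even values 32.72, 163.96, 23.66 and 26.02. Region D kept the largest value with both pools.

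**Figure D2:**
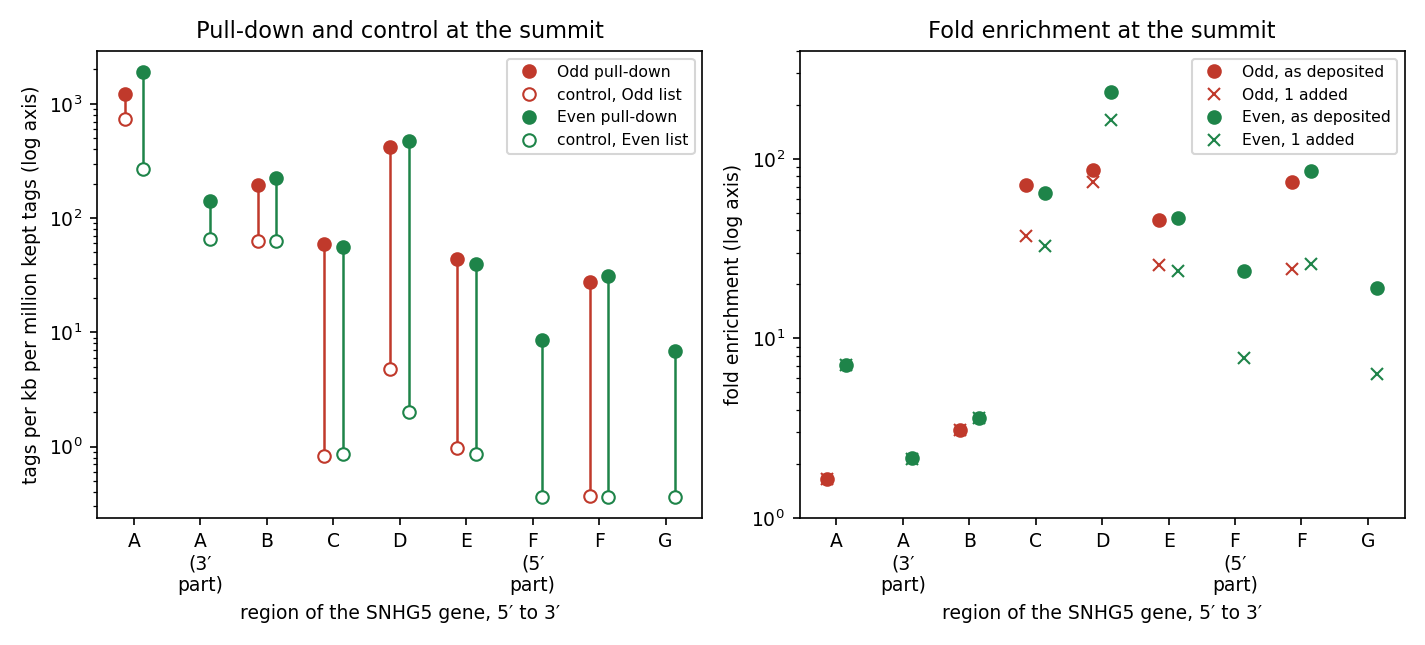
Left, tags per kb and 1000000 kept tags at the summit of each SNHG5 peak (log axis) for the pull-down (filled) and the control background (open). Right, fold enrichment (log axis) as deposited (dots) and with 1 added to pileup and background (crosses). The pull-down spans 6.92 to 1900 and the control 0.365 to 738, and the fold enrichment is largest in region D with both pools. The main peaks of region A are bounded by duplicate removal.

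Set against their own lists, 4 of 6 Odd and 6 of 9 Even peaks of SNHG5 were above the median fold enrichment, 22.75 in the Odd list and 9.47 in the Even list. The peaks below the median were those of regions A and B in both lists. All 6 Odd peaks and 8 of 9 Even peaks were longer than the median of their list. The number of peaks over an annotated exon was 6 in the Odd list, where 1 of 485 genes with such a peak had more, and 9 in the Even list, where 5 of 3337 had more. SNHG5 exons are partly shared with ENSG00000271793, a readthrough gene at chr6:86214494-86388451 that is annotated as protein-coding. All 6 Odd and 9 Even summits lay within its limits, and 3 peaks of each list overlapped one of its exons and can also be assigned to it.

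**Figure D3:**
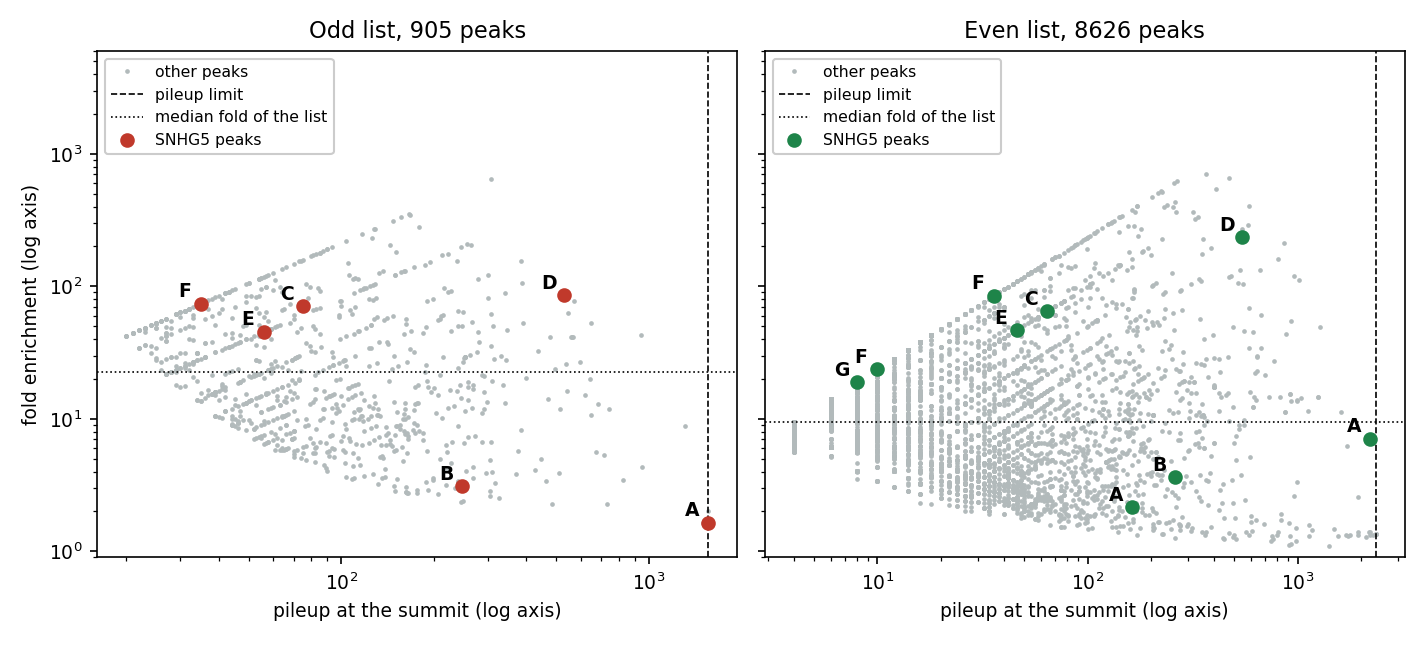
Pileup at the summit against fold enrichment (both log axes) for all peaks of the Odd list (left) and the Even list (right). Large dots with letters are the SNHG5 peaks, the dashed line is the highest pileup that duplicate removal allows and the dotted line the median fold enrichment. The main peak of region A reaches 99.6% of the pileup limit for Odd and 93.5% for Even, while region D combines a pileup of 531 or 543 with a fold enrichment of 86.30 or 234.26.

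The oligonucleotides had no long match near the summits outside region A. Within 250 bp of the summit, on either strand, 1 of 6 Odd peaks and 0 of 9 Even peaks of SNHG5 had an exact run of at least 11 nt in common with any of the 16 targets, the one exception being the Odd peak over the targets themselves. The longest run at the other SNHG5 summits was 9 nt. Peaks elsewhere in the genome had a run of 11 nt or more in 31.9% of 884 Odd peaks and 10.9% of 8389 Even peaks, with a median longest run of 10 nt and 9 nt. A run of such length says nothing of pairing in the cell.

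The annotated transcripts differ in how much of the targeted sequence they keep. Of the 89 transcripts, 53 ended inside region A and carried a median of 14 targets, and 36 extended beyond it with a median of 9. At least 1 target was present in 34 of the extended transcripts and all 16 in 7 of them, while SNHG5-284 and SNHG5-289, which lie in regions E and F, carried none. The lists give no value per transcript, so peak coverage of a region cannot be divided among the transcripts that share it.

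Around the gene, the distance to the nearest outside peak differed between the lists. The nearest other Odd peak on chromosome 6 was 3040 kb upstream, in RNGTT. In the Even list the nearest peak downstream lay 9.93 kb away in SYNCRIP, which encodes an RNA-binding protein and is the nearest protein-coding gene that does not overlap SNHG5, and had a fold enrichment of 2.09. The nearest Even peak upstream, 14 kb away, had a pileup of 4. HTR1E, a serotonin receptor gene and the next protein-coding gene upstream, had no peak over an exon in either list.

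Outside its own gene, the spliced SNHG5-202 sequence of 451 nt had 1 further match in the genome, at chr17:47416769-47417192 on the minus strand, in an intron of ZNF652, which encodes a zinc finger protein and lies on the same strand. The copy had 91.6% identity over 439 aligned positions and held all 5 exon junctions joined, without the introns. Of the 10 targets that aligned to it without a gap, 7 were identical, 5 of 5 Even and 1 of 4 Odd targets and the unmarked one. Targets 4 and 19 aligned with a gap and targets 9 and 11 did not align in full. Targets 12 and 14 are absent from SNHG5-202 and were not sought in the copy. Targets 1 and 18 are shown as they stand in the copy, with capitals marking the base that differs from SNHG5, G8A in target 1 (positions counted from 1 at the 5′ end, SNHG5 base first).
Target 1 in the copy, chr17:47417173-47417192: cttttacAtcggccttcgcg
Target 18 in the copy, chr17:47416826-47416845: gaaaagctgataagaaaacc

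The Odd peak over this copy was close to that of region A in pileup and fold enrichment, whereas the Even peak had a lower recorded fold enrichment. The Odd pileup stood at 96.2% and the Even pileup at 82.4% of the limit set by duplicate removal. Both fold enrichments were therefore bounded by that limit and the background, and are no measure of relative retrieval. The Odd peak had a pileup of 1501, the third highest of its list directly after that of SNHG5, and a fold enrichment of 1.63 against 1.65 in region A. The Even peak had a pileup of 1938 and a fold enrichment of 2.59 against 7.10 for the main peak of region A. Both summits lay in the copy, where the background corresponded to 2880 control tags per kb at the Odd summit and 2580 at the Even summit, against 2940 and 1070 in region A. Of the 404 possible 48-nt stretches of SNHG5-202, 62 were identical in the copy and 117 (29.0%) differed by at most 2 bases. Tags of SNHG5 RNA and of ZNF652 RNA cannot be told apart in the identical stretches. How tags were placed in those that differ was not tested, nor were the shares of both RNAs in the peaks of region A and of the copy.

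ZNF652 also had peaks away from the copy. In all it had 5 Odd and 17 Even peaks, of which 4 and 16 lay outside the copy, all but 1 in each list in introns. Their pileups were 27 to 47 in the Odd list and 6 to 58 in the Even list, and their fold enrichments 19.10 to 49.64 and 8.11 to 73.81. In SNHG5, the peaks outside regions A and B had fold enrichments of 45.51 to 86.30 in the Odd list and 18.95 to 234.26 in the Even list. Duplicate removal bounded the fold enrichment of the main peak over the target-like sequence in both genes. That main peak had a very high pileup and a lower recorded fold enrichment than the other peaks just given. The Even peak of region B, with 3.62, and the short Even peak of region A, with 2.15, went the other way and were below the 7.10 of the main peak. The pileup of region D, 531 and 543, had no counterpart away from the copy in ZNF652.

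Other snoRNA host genes were compared as a group, since their RNAs are built in the same way. Of 30 such genes other than SNHG5, 1 (3.3%) had an Odd peak over an exon, against 0.752% of all annotated genes, and 3 (10.0%) had an Even peak, against 5.17%. SNHG17 had 2 Odd and 5 Even peaks, with a largest fold enrichment of 6.72 and 11.42. SNHG20 had 1 Even peak with a fold enrichment of 56.33 and DANCR 1 with 17.24. None had as many Odd peaks as SNHG5, and the genes differ in length and expression, neither of which was taken into account.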

How the data were processed

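Reads were trimmed and aligned to hg19 with STAR by the authors, who called peaks with MACS 2.0.9 (p of 0.001) and combined both Odd libraries through IDR, a filter on reproducibility that was not possible for Even. MACS kept 4904959 of 150214135 Odd tags, 1965614 of 55933565 Even tags and 3986040 control tags, and scaled the Even pull-down by 2.0279 and the control of the Odd list by 1.2305. The deposited pileup is a coverage signal at the summit, the deposited fold enrichment is the ratio of pileup to local background, and the deposited −log10 p-value ranked the peaks. The methods state that peaks in introns were removed later, but the lists used here hold them. Background was taken as pileup divided by fold enrichment, and tags per kb by undoing the scaling and dividing by fragment length. The background is therefore the level used for the ratio, which can be a floor, and not a count of control tags at the summit.

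Annotation was GENCODE version 44 on GRCh37, later than the study. Exact 48-nt copies were counted genome-wide, and other copies were found with BLAST 2.17.0 (e-value 1e-05). Python 3.11.15, pandas 2.3.3 and pysam 0.24.0 were used, and the overlap and copy counts were tested on simulated data. Alternatives changed the overlap rule, list length, transcripts and ratio. Genes were named as SNHG5, genes inside or next to its limits, and host genes with a peak over an exon. AKAP12, RNGTT, ZNF652 and PKM were added with their values in view. The locus, lists and rules were chosen with earlier results of these data known.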

Additional observations from a re-analysis of the deposited data

How the results depend on the processing

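Of 20 alternatives to the 11 main values, 18 left the value within 1.5 times the reported count, or within the 95% binomial interval of a reported fold enrichment. That interval treats tags as independent and measures no spread between libraries. It is wide over the low background of region D, where the Even value went from 234.26 to 163.96. Some alternatives could not have moved a value. Every SNHG5 peak lay wholly inside the gene, and no further peak lay within 5 kb of it. Adding 1 hardly alters the ratios of region A. With summits within 250 bp of each other in place of any overlap, 3 of the 6 Odd peaks had an Even counterpart, since the summits in regions A, C and F were farther apart. With overlap anywhere from start to end of a gene, 6 other snoRNA host genes had an Even peak in place of 3. With as many Even peaks, those of smallest p, as the Odd list holds, 6 Even peaks were left at SNHG5, and each of the 6 Odd peaks was still overlapped. With basic transcripts alone, 5 Even summits were exonic in place of 7. Adding 1 to pileup and background, an alternative chosen for regions C, E and F after seeing the data, lowered their fold enrichments by more than 1.5 times, as given above. These changes, in both lists, are not among the 20 alternatives counted. No paired analysis was possible because the lists pool libraries and carry no value per replicate, and for the same reason no replicate could be left out. The pileup in region A is limited by duplicate removal, and that in region G rests on 4 tags.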
